A study of Mus musculus with 2 samples.

Results

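Collagen-rich squares are the places in a section of irradiated mouse intestine where 5 genes of connective tissue, Col1a1, Col1a2, Col3a1, Sparc and Dcn, took the largest share of the counts. The barcodes of the section labelled Dpf2 knockout were summed in squares with a side of 10 position units, and 8285 squares with at least 1000 counts were kept. The score of a square is the summed counts of the 5 genes over all its counts. The 414 squares with the highest scores, the top 5%, are the collagen-rich squares, and the other 7871 kept squares are called the remaining squares. In the section labelled wild type the same rule gave 245 of 4917 kept squares, so the series holds 13202 kept squares in all. The score chose the squares, so the levels of all genes in them are a description of this section and carry no test.

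The series asks what DPF2 does in radiation injury of the intestine. DPF2 belongs to BAF, a SWI/SNF complex that remodels chromatin. The series holds 1 section from wild-type mice and 1 section from Dpf2 knockout mice, and both groups had received 10 Gy of X-rays. No unirradiated section is part of the comparison. Not given in the sources used here are the hours or days between irradiation and sampling, the segment of intestine, what was deleted of Dpf2 and in which cells, and how long a position unit is. Each genotype has 1 section, so genotype and section cannot be told apart, squares of a section are not replicates, and intervals cover counting error only. A square is a small region that can hold several cells of different types, and with counts of tissue regions fewer cells of a type and less RNA per cell cannot be told apart.

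Connective tissue of the gut lies in the lamina propria around the crypts, in the submucosa and around vessels, nerves and muscle bundles. Its fibroblasts secrete type I and type III collagen chains, which assemble into fibrils, and proteins that bind those fibrils. Other cells make some of the same transcripts: smooth muscle cells, pericytes, endothelial cells and adipocytes make parts of their own matrix.

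Of the genes of the rule, Col1a1 (chromosome 11, 94936224 to 94953042 on GRCm38.p6) and Col1a2 (chromosome 6, 4505618 to 4541543) encode the chains of type I collagen. Col3a1 (chromosome 1, 45311538 to 45349706) encodes the chain of type III collagen. Sparc (chromosome 11, 55394159 to 55420080) encodes a matricellular glycoprotein that binds collagen, and Dcn (chromosome 10, 97479500 to 97518163) encodes decorin, a small proteoglycan that coats collagen fibrils. These genes lie on 4 chromosomes and the score adds them up. The 150 bases before the start sites of Col3a1, Col1a2 and Sparc, and of Adipoq, the adipocyte gene of adiponectin, are shown from RefSeq on GRCm38.p6 to let the sequences behind the transcripts be compared. Each is given 5′ to 3′ on the strand of the gene, with matches to CCAAT or TATAA, on either strand, in capitals. The Col3a1 window is chr1:45311388-45311537 on the plus strand, that of Col1a2 is chr6:4505468-4505617 on the plus strand, that of Sparc is chr11:55420081-55420230 on the minus strand and that of Adipoq is chr16:23146386-23146535 on the plus strand.
Col3a1: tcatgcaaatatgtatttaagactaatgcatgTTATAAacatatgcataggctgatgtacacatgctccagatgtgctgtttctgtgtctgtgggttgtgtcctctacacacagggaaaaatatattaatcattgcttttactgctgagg
Col1a2: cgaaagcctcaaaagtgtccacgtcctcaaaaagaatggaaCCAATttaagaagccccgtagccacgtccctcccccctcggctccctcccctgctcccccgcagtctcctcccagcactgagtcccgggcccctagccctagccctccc
Sparc: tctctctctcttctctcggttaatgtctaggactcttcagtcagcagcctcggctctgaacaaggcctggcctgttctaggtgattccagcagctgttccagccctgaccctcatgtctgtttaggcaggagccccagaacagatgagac
Adipoq: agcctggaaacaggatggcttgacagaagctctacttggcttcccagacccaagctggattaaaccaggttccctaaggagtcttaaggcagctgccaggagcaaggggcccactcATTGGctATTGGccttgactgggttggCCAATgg
Col3a1 holds 2 overlapping matches to TATAA, 1 on each strand, Col1a2 holds 1 match to CCAAT and Adipoq holds 3, and neither motif occurs in the window of Sparc. Over 32817 promoter windows of the same length, 24.5% hold CCAAT and 14.2% hold TATAA. The letters are a description of these windows.

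The collagen-rich squares held 4682426 counts and the remaining squares 85028560. A collagen-rich square had a median of 10898.5 counts, with a range of 1072 to 26573, against a median of 10169 in the remaining squares, and the median was 11 barcodes in both. The score rests on few counts: a collagen-rich square held a median of 21 counts of the 5 genes, from 2 to 101, and 49 of the 414 squares held fewer than 10. The square with the lowest score inside the set had 1484 counts of the 5 genes per 1000000 counts (CPM), from 11 counts of 7410. The square just outside had 1481 CPM, from 15 of 10125, so squares at the edge of the set are alike. The median score was 1874 CPM inside and 245 CPM outside, and 1171 remaining squares held none of the 5 genes.

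All 5 genes were higher in the collagen-rich squares, as the rule requires. Col1a1 stood at 404 CPM against 93.2 CPM in the remaining squares, Col1a2 at 387 against 83.7, and Col3a1 at 257 against 40.2. Sparc stood at 488 against 78.8 CPM and Dcn at 484 against 69.6. The log2 ratios ran from 2.11 for Col1a1 (95% interval 2.04 to 2.19) to 2.80 for Dcn (2.73 to 2.87), with 2.21 for Col1a2, 2.63 for Sparc and 2.68 for Col3a1. Not every collagen-rich square held all of them: Col1a1 was at 0 counts in 45 squares, Col1a2 in 37, Col3a1 in 60, Sparc in 33 and Dcn in 25. The collagen-rich squares held 19.3% of the section's Col1a1 counts and 27.7% of its Dcn counts.

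**Figure D1:**
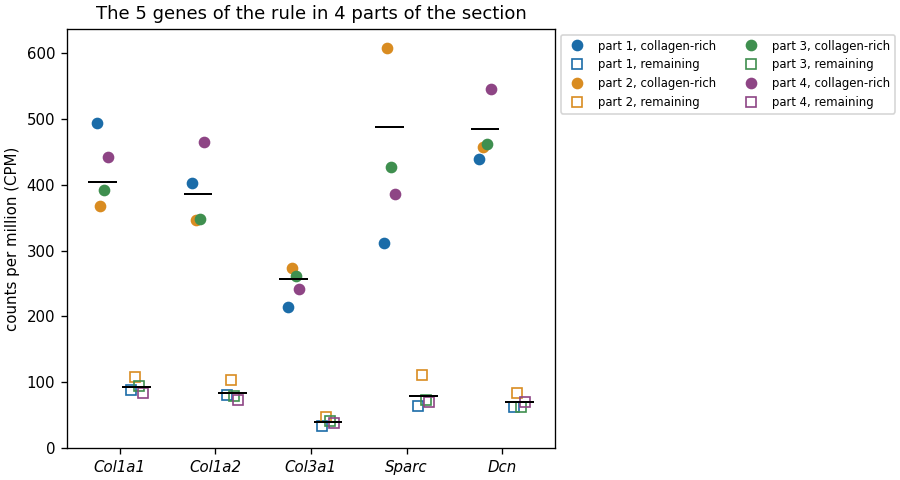
Levels of the 5 genes of the rule (CPM, vertical axis) in 4 parts of the section labelled knockout that were split by position. Filled circles are collagen-rich squares, open squares are remaining squares, and black lines are the levels over the whole section. In every part each gene lies higher in the collagen-rich squares, with Col1a1 from 367 to 494 CPM against 83.5 to 109 CPM.

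The same genes were looked at in barcodes that had not chosen the squares. Within each square every other barcode, in the order of the deposited table, gave the score, and the barcodes between them were only measured. Over 8202 squares with barcodes in both sets, the 410 squares chosen by the first set had 1652 CPM of the 5 genes in the other set, against 391 CPM in the remaining squares, a log2 ratio of 2.08 (2.03 to 2.13). By gene this ratio was 1.69 for Col1a1, 1.82 for Col1a2, 2.20 for Col3a1, 2.33 for Dcn and 2.39 for Sparc. All were lower than the ratios over all barcodes, and all remained above 2-fold. Of these 410 squares, 299 are also collagen-rich by all barcodes. Neighbouring barcodes share tissue and may share diffused RNA, so the sets are not independent samples.

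Within the collagen-rich squares the genes did not vary as 1 unit. Over all 8285 squares the Spearman correlation of Col1a1 with Col1a2 was 0.32 and with Sparc 0.28. Within the 414 collagen-rich squares the first was 0.28 and the second was -0.36. The score fixes part of this, since a square that is high in 1 gene needs less of the others to enter, and the points share a section and its library.

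The collagen-rich squares lay in patches. They formed 123 groups of touching squares, of which the largest held 60, 37 and 26 squares, and 68 squares touched no other. Of the neighbours of a collagen-rich square, 33.3% were collagen-rich themselves, against 3.29% of the neighbours of a remaining square. When the section was split into 4 parts, at the median x position and then at the median y position on each side, the parts held 36, 213, 63 and 102 of the collagen-rich squares, which is 1.68%, 10.2%, 3.05% and 5.10% of their squares. Part 2 thus held more than any other part. Gaps beside a square, at the edge of the tissue or of the kept squares, were also more frequent: 34.1% of the collagen-rich squares had fewer than 8 kept neighbours, against 14.9% of the remaining squares.

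**Figure D2:**
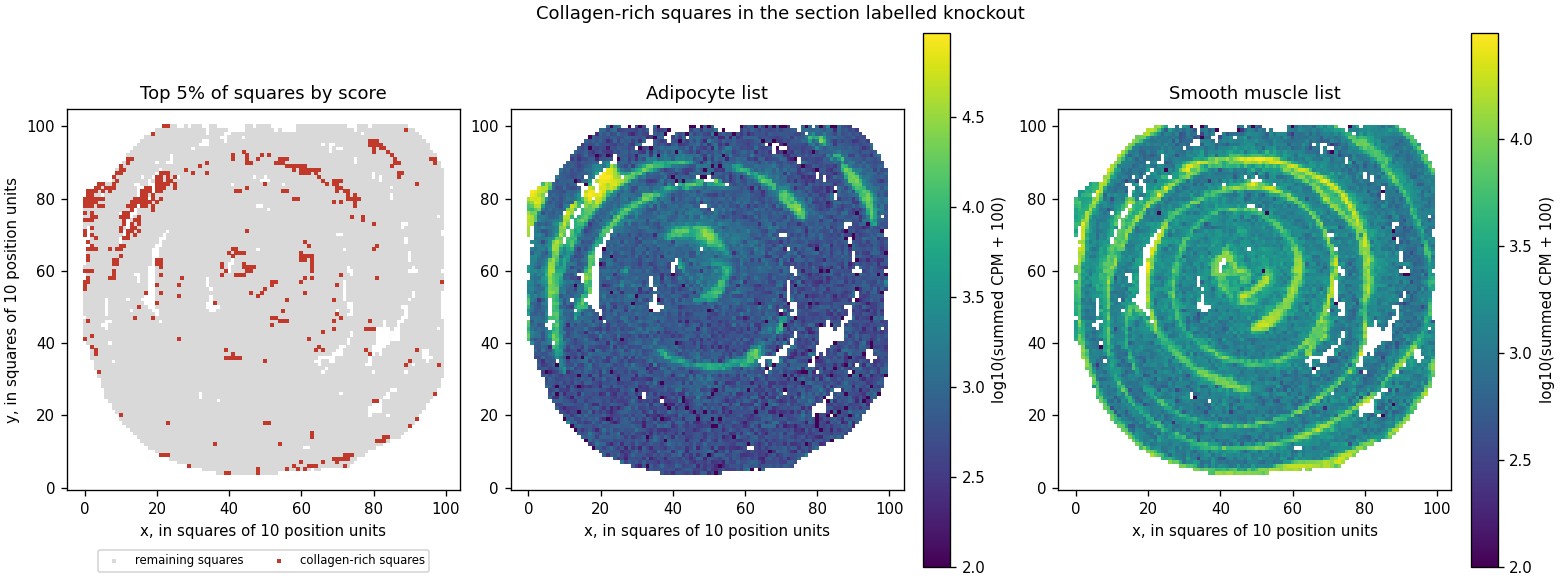
Positions of the squares in the section labelled knockout (x and y in squares of 10 position units). The first panel shows the 414 collagen-rich squares in red over the remaining squares in grey, and the other panels colour each square by the log10 of the summed CPM of the adipocyte and smooth muscle lists plus 100. Collagen-rich squares gather in patches, and 99 of the 213 in part 2 are among the squares richest in adipocyte genes.

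Among 10750 genes with 500 or more counts in the kept squares, and without the 5 genes of the rule, 928 (8.63%) were at least 2-fold higher in the collagen-rich squares and 195 (1.81%) at least 2-fold lower. The median log2 ratio over all of them was 0.16. With counts scaled by the median of ratios in place of the total, the numbers were 765 higher and 337 lower, so the higher genes made up 69.4% of the calls in place of 82.6%. With each square thinned to 1000 counts for the score they were 677 and 44. Of the 10750 genes, 353 (3.28%) were at least 2-fold higher in each of the 4 parts and 18 (0.167%) at least 2-fold lower in each.

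The 25 genes with the highest ratios among those 2-fold higher in all parts were of several kinds. Fmo2, a flavin-containing monooxygenase, had 51.7 CPM against 8.27 (log2 ratio 2.64), and Sod3, the extracellular superoxide dismutase, had 34.8 against 5.92 (2.56). Aebp1, a collagen-binding secreted protein, had a log2 ratio of 2.54. Clec3b, which encodes tetranectin, had 84.6 against 14.9 CPM (2.51), and Ccdc80, another secreted matrix protein, had 51.5 against 9.11 CPM. Vim, the intermediate filament of mesenchymal cells, had 119 against 22.6 CPM (2.39). The complement genes Serping1 and C3 followed, at log2 ratios of 2.41 and 2.32, with Thbd, which encodes thrombomodulin, at 2.35. The receptor tyrosine kinase Axl stood at 2.34 and the Wnt receptor Fzd1 at 2.30. The ratio of C3 was alike across the section, at 2.01, 2.06, 2.03 and 2.48 in parts 1 to 4. Olfr1033 gave the highest ratio of this set, 2.81 (2.56 to 3.06), from 181 counts in the collagen-rich squares. Plac9a (2.48) and Plac9b (2.38) are near-identical copies, so the split between them is uncertain.

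Ifi27l2a and Ces1d belong to the same set and were many-fold higher in the squares rich in adipocyte genes. Ifi27l2a stood at 560 against 92.9 CPM (2.59). It reached 1960 CPM in the collagen-rich squares richest in adipocyte genes and 154 CPM in those rich in neither adipocyte nor smooth muscle genes. Ces1d, a carboxylesterase, had 688 and 47.1 CPM in the same sets. Without the squares richest in adipocyte genes they stood at 150 against 52.8 and 54.4 against 18.8 CPM. Other genes of the set were also highest in the adipocyte-rich squares, by smaller ratios. C3 had 989 CPM there and 374 CPM in the squares rich in neither, and Vim had 170 and 96.4. Not all did so: Vip had 34.0 and 191 CPM.

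The collagens outside the rule were higher where they were measured. Of 8 further fibrillar collagen genes 2 passed the count minimum: Col5a2, a chain of the type V collagen that nucleates fibrils, had 35.2 CPM against 8.30 (log2 ratio 2.09, 1.83 to 2.33), and Col5a1 had 46.8 against 19.1 (1.29). In each of the 4 parts both ratios exceeded 1. Of 4 measured fibril-associated collagens, Col14a1 (74.7 against 22.7 CPM, 1.72) and Col16a1 (1.21) were at least 2-fold higher. Type VI collagen forms beaded filaments around cells. Its chains Col6a1, Col6a2 and Col6a3 had log2 ratios of 1.53, 1.53 and 1.37, while Col6a4 was lower in the collagen-rich squares (9.61 against 13.4 CPM, -0.48). The only transmembrane collagen measured, Col17a1, an epithelial chain, stood at 14.5 against 13.6 CPM.

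Most basement membrane genes were higher. Of 16 measured, 11 were at least 2-fold higher and 1 at least 2-fold lower, with a median of 1.19 against 0.16 for all genes tested. Col4a1 and Col4a2, the common type IV collagen chains, had 162 against 48.5 CPM (1.74) and 132 against 41.0 CPM (1.69). Lamb2, Nid1 and Col15a1, of laminin, nidogen and a vessel and muscle collagen, had log2 ratios of 2.08, 2.03 and 1.85. Lamb3 and Lama3, laminin chains of epithelial cells, were lower, at 13.2 against 28.0 CPM (-1.08) and at -0.86.

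Small leucine-rich proteoglycans bind collagen fibrils and set their spacing. Without Dcn, 6 were measured and 5 were at least 2-fold higher, with a median of 1.86. Lum (lumican) had 160 against 41.7 CPM (1.94, 1.82 to 2.05), Ogn (osteoglycin) 66.8 against 16.6 (2.01), Aspn (asporin) 26.5 against 5.94 (2.16), Prelp 73.7 against 21.7 (1.77) and Optc 36.7 against 10.7 (1.78). Podn, at 30.8 against 24.8 CPM (0.31), did not reach 2-fold. Bgn, which encodes biglycan, lies on chromosome X, where the 2041 matched genes hold no count in either section, so it gave no value here. The hyaluronan and hyalectan genes, of which 3 were measured, had a median of 0.31 and none was 2-fold apart.

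Elastic fibres consist of elastin on a scaffold of fibrillin microfibrils. Of 13 measured genes 12 were at least 2-fold higher, with a median of 1.61. Eln (elastin) had 90.1 against 21.7 CPM (2.05, 1.90 to 2.20). The latent TGF-beta binding protein Ltbp4 had 71.8 against 14.3 CPM (2.33), and Fbln5 and Loxl1, which assemble and crosslink elastin, had ratios of 1.90 and 1.98. Fbn1 (fibrillin-1) was at 1.16. Fbln1 was the exception, at 258 against 292 CPM (-0.18).

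Of 19 measured matricellular and adhesive glycoproteins besides Sparc, 16 were at least 2-fold higher and the median was 1.54. Svep1 had the highest ratio (29.5 against 5.34 CPM, 2.46), followed by Abi3bp and Fndc1 (both 2.27), Postn (periostin, 59.2 against 13.2 CPM, 2.17), Ctgf (2.15), Dpt (dermatopontin, 121 against 28.6 CPM, 2.08) and Tnxb (tenascin-X, 2.02). Fn1 (fibronectin) had 130 against 44.6 CPM (1.54) and Tnc (tenascin-C) 72.6 against 28.6 (1.34). Tgfbi was slightly lower, at 140 against 172 CPM (-0.30).

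The machinery that folds, trims and crosslinks collagen was split. Of 19 measured genes 9 were at least 2-fold higher and the median was 0.98. Pcolce, which enhances trimming of the C-terminal propeptide, had 66.4 against 16.3 CPM (2.03), Serpinh1, the collagen chaperone HSP47, had 172 against 48.5 (1.82) and Adamts2, which trims the N-terminal propeptide, had 18.8 against 5.43 (1.79). Genes with wider roles in secretion, P4hb and Sec31a, were lower. P4hb, a protein disulphide isomerase that is also a subunit of prolyl 4-hydroxylase, had 1182 against 1693 CPM (-0.52), and Sec31a, of the coat of secretory vesicles, stood at -0.34.

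Of 14 measured matrix proteases and inhibitors 7 were at least 2-fold higher, with a median of 1.17. The inhibitors Timp2 (138 against 30.0 CPM, 2.21) and Timp3 (100 against 29.4, 1.77) were among them, with the serine protease Htra3 (2.16) and the gelatinase Mmp2 (33.5 against 8.44 CPM, 1.99). Mmp10 stood at 4.27 against 6.02 CPM, from 20 counts. Collagen and matrix receptors were less uniform, with 6 of 16 at least 2-fold higher and a median of 0.43. The collagen receptor Ddr2 had 47.2 against 16.0 CPM (1.56), while its paralogue Ddr1 had 97.2 against 108 (-0.15). The integrin chain Itga1 stood at 1.34 and the syndecans Sdc3 and Sdc2 at 1.75 and 1.74.

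**Figure D3:**
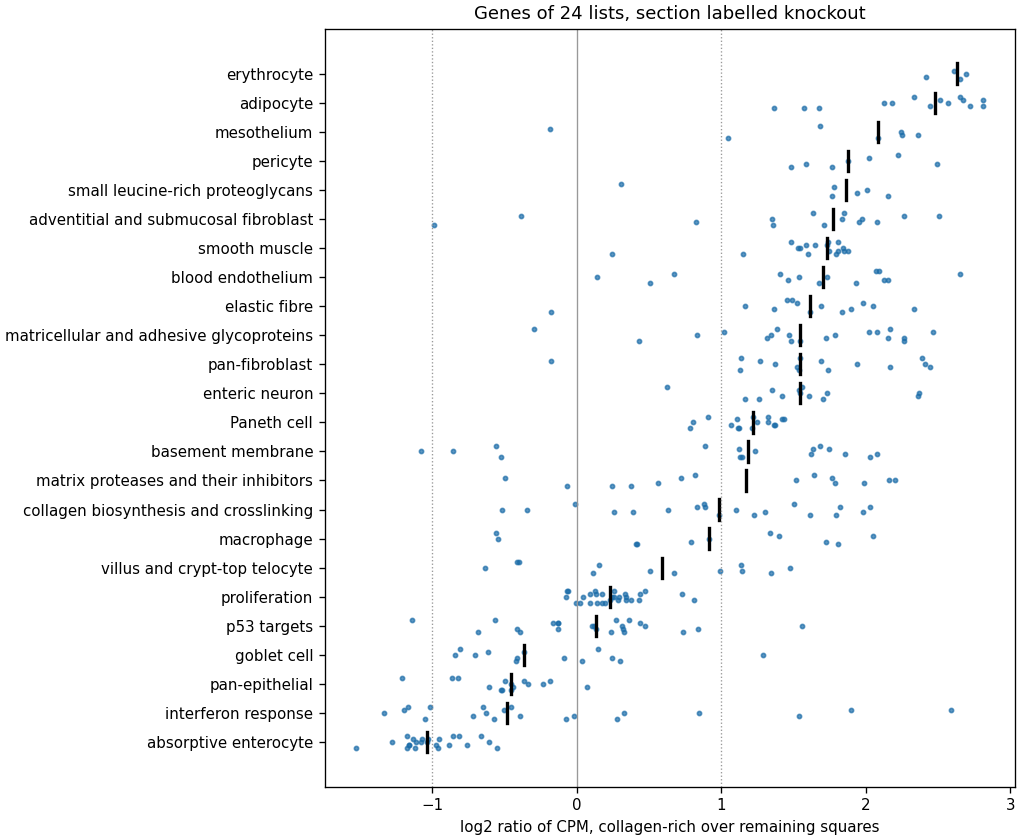
Log2 ratios of CPM, collagen-rich over remaining squares of the section labelled knockout (horizontal axis), for the measured genes of 24 lists (rows). Each point is 1 gene, black bars are list medians and dotted lines mark 2-fold. Medians run from 2.63 for the erythrocyte list to -1.04 for the absorptive enterocyte list.

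Signals between stroma and epithelium were read by pathway. BMP signals hold back crypt cell division and stromal antagonists block them near the crypt base. Of 9 measured genes of this pathway 5 were at least 2-fold higher and the median was 1.48. The antagonist Grem1 (92.3 against 28.2 CPM, 1.71) was higher, and so were the ligand Bmp4 (19.0 against 6.82, 1.48) and Gdf10 (2.44). The ligand Bmp2 was lower (11.1 against 20.8, -0.91). Genes of both kinds, antagonist and ligand, were thus among the higher ones. Of 4 measured Wnt genes, the antagonist Sfrp1 was at least 2-fold higher (86.5 against 21.3 CPM, 2.02), with Wnt5a at 0.99 and Dkk3 at 0.84.

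Of 10 measured genes of hedgehog and PDGF signalling 6 were at least 2-fold higher, with a median of 1.06. The receptor Pdgfra had 45.1 against 20.5 CPM (1.14), the hedgehog-responsive factors Foxf1 and Foxf2 had log2 ratios of 1.38 and 1.56, and Ihh, the epithelial ligand, had 61.7 against 92.6 CPM (-0.59). Of 12 measured TGF-beta genes 4 were at least 2-fold higher, with a median of 0.38: Tgfb1i1 (1.80), the co-receptor Tgfbr3 (61.1 against 18.7 CPM, 1.70), Ltbp1 (1.45) and the receptor Tgfbr2 (66.2 against 29.0 CPM, 1.19). Smad7, an inhibitor of the pathway, stood at 20.3 against 33.5 CPM (-0.72).

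Among 13 measured IGF and FGF genes 9 were at least 2-fold higher and the median was 1.84. Igfbp7 had 256 against 46.9 CPM (2.45), Igfbp4 357 against 76.3 (2.23), Igfbp6 112 against 23.6 (2.24), Igf1 47.2 against 12.4 (1.93) and Fgfr1 34.4 against 7.10 (2.28). Igfbp4 and Igfbp6 encode secreted proteins that bind insulin-like growth factors. Fgfr2 was level, at 2710 and 2665 CPM. Of 9 measured stromal chemokines and cytokines 3 were at least 2-fold higher, Ccl21a (2.10), Cxcl12 (47.0 against 12.6 CPM, 1.90) and Csf1 (1.59), and the median was 0.34. Of 10 measured complement and coagulation genes 8 were at least 2-fold higher, with a median of 1.89.

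The label of stroma was read against markers of fibroblasts that the score did not use. The pan-fibroblast list is not a separate check, since it shares Lum, Fn1, Postn, Igfbp7, Col6a1, Col6a2 and Col6a3 with the lists above. Of 15 measured pan-fibroblast genes 14 were at least 2-fold higher, with a median of 1.54, and 48.6% of the collagen-rich squares were also in the top 5% of squares for this list. Their summed level was 3077 CPM against 1107, and it was higher in each of the 4 parts. Fbln1 (-0.18) was the exception. Pdgfrb, at 31.8 against 14.6 CPM (1.13), and Gsn, at 1524 against 457 (1.74), were among the 14 genes. Gsn alone thus held 1524 of the 3077 CPM, so the sum and the overlap of squares rest largely on 1 gene. Of 14 measured adventitial and submucosal fibroblast genes 11 were at least 2-fold higher, with a median of 1.77, and examples were Cd34 (47.8 against 12.2 CPM, 1.97), Dpt and Clec3b. Dpp4, which enterocytes also express, was lower (280 against 554 CPM, -0.99). In each of the 4 parts 2 genes of this list were below 0. The list summed to 1566 against 1151 CPM, and over all squares its Spearman correlation with the score was 0.09. Of the crypt-base trophocyte list 3 genes were measured and 2, Grem1 and Sfrp1, were at least 2-fold higher. Genes of villus and crypt-top telocytes were less so, with 4 of 12 at least 2-fold higher and a median of 0.59.

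Fibroblast genes were not the only ones to follow the score. Of 17 measured smooth muscle genes 16 were at least 2-fold higher, with a median of 1.73 and a summed level of 8595 CPM against 2735. Acta2, smooth muscle actin, had 1338 against 386 CPM (1.79) and Myh11, smooth muscle myosin, 590 against 164 (1.84). All 7 measured pericyte genes were at least 2-fold higher, Rgs5 with 567 against 203 CPM and Mcam with 137 against 33.8. So were 11 of 14 blood endothelial genes, with Vwf, the von Willebrand factor, at 35.2 against 5.61 CPM (2.65). Of 5 measured lymphatic genes 4 were at least 2-fold higher, Lyve1 and Ccl21a among them, and Nts was lower (-1.10).

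The nerve and surface layers of the gut wall were represented as well. Of 13 measured enteric neuron genes 12 were at least 2-fold higher, with a median of 1.54: Vip, a neuropeptide, had 145 against 28.1 CPM (2.37) and Gal, galanin, 63.6 against 12.4 (2.36). Of 4 measured genes of interstitial cells of Cajal, the pacemaker cells, 3 were at least 2-fold higher, and Kit stood at 77.1 against 63.3 CPM. Of 4 glial genes 2 were, with Cryab at 1.56. Of 7 measured mesothelial genes 6 were, with Upk3b at 33.5 against 6.53 CPM (2.36). The part that RNA of these cells has in the matrix genes above was not tested.

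Adipocyte and red cell genes gave the highest list medians. All 14 measured adipocyte genes were at least 2-fold higher, with a median of 2.48 and a summed level of 9547 CPM against 1714. Cfd, adipsin, had 4248 against 677 CPM (2.65), Adipoq 341 against 48.5 (2.81) and Car3 936 against 133 (2.81). These levels were uneven over the section. In part 2 Adipoq had 660 CPM in the collagen-rich squares against 113 in the remaining ones, in part 3 it had 16.9 against 15.6. The 4 measured haemoglobin genes, near-identical copies within each chain, had a median of 2.63, and Hbb-bs had 538 against 83.3 CPM. Red cell genes were uneven too, with a list sum of 185 against 143 CPM in part 1 and 2046 against 397 in part 2. The median collagen-rich square had 303 CPM of this list and the 90th percentile was 4814 CPM.

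The 5% of squares with the largest share of adipocyte counts held 111 of the 414 collagen-rich squares, 99 of them in part 2. Another 108 were among the 5% richest in smooth muscle counts, and 195 were in neither group. These 3 sets follow from where the thresholds were set and serve to describe the squares. Col1a1 had 227 CPM in the adipocyte-rich set, 422 in the muscle-rich set and 474 in the others, and Col1a2 had 270, 375 and 446. Sparc ran the other way, at 847, 415 and 365 CPM. Col3a1 (303, 267 and 231) was highest in the adipocyte-rich set, and Dcn (527, 460 and 478) differed least. The pan-fibroblast sum was 4788, 2464 and 2641 CPM in the same sets, and so was highest where Col1a1 was lowest.

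**Figure D4:**
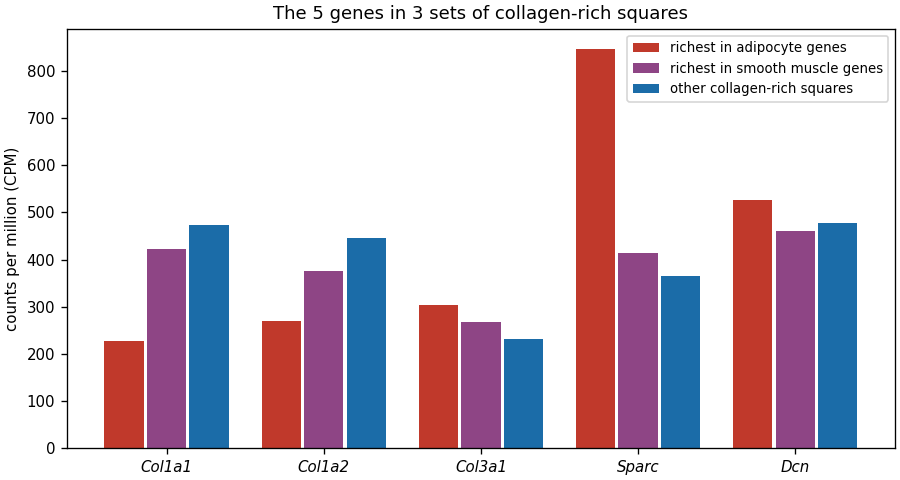
Levels (CPM, bars from 0) of the 5 genes of the rule in 111 collagen-rich squares richest in adipocyte genes, 108 richest in smooth muscle genes and 195 others. Sparc was highest in the first set, at 847 CPM, while Col1a1 and Col1a2 were lowest there, at 227 and 270 CPM.

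The matrix genes were higher with and without the adipocyte-rich squares. When these were left out of both sides, 832 of 10538 genes (7.90%) were at least 2-fold higher and 167 (1.58%) at least 2-fold lower, and 755 and 153 of them were among the calls with all squares. The median of the adipocyte list was then 1.06, with 8 of its genes at least 2-fold higher, and Cidec, a lipid droplet gene, was at -0.15 in place of 1.37. The pan-fibroblast median was 1.59 in place of 1.54, that of small leucine-rich proteoglycans 1.98 in place of 1.86, that of smooth muscle 1.94 in place of 1.73 and that of erythrocytes 2.32 in place of 2.63. By a rule added after the values had been seen, the genes highest in this comparison included Gal and Vip (both 2.66), Mgp, an inhibitor of calcification (2.34), and Crispld2 (2.39). Mgp had 513 against 120 CPM over all squares and 212 CPM in the adipocyte-rich set.

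Immune cell genes were mixed. Of 11 measured macrophage genes 5 were at least 2-fold higher and the median was 0.91: Apoe had 806 against 244 CPM (1.72), Lyz2 53.2 against 12.9 (2.05) and Mrc1 34.8 against 10.0 (1.81), while Cd74 had 216 against 163 (0.41). The macrophage list summed to 1546 CPM in the collagen-rich squares, of which Apoe alone held 806. By set the sum was 2726 CPM in the adipocyte-rich set, 991 in the muscle-rich set and 1319 in the others. The 4 measured T and NK cell genes had a median of -0.61 and the 7 plasma cell genes 0.05, with Igha at 869 against 1167 CPM. No neutrophil or mast cell gene passed the count minimum, and the summed neutrophil level was 16.9 against 6.48 CPM.

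Enterocyte genes were lower, and other epithelial genes were less uniform. All 23 measured absorptive enterocyte genes were lower in each of the 4 parts, 13 of them at least 2-fold, and the median was -1.04. Apoa4, an apolipoprotein of chylomicrons, had 2165 against 6245 CPM (-1.53) and Apoa1 2815 against 6351 (-1.17). Their sum was 22065 against 44289 CPM, so epithelial RNA was also present in the collagen-rich squares. Of 15 pan-epithelial genes 1, Krt20, was at least 2-fold lower (556 against 1288 CPM), and the median was -0.46. Goblet cell genes had a median of -0.36, with Zg16 at 1865 against 3342 CPM. Of 13 measured none was at least 2-fold lower and 1 was at least 2-fold higher, the chemokine gene Ccl9 (42.9 against 17.6 CPM, 1.29). Over all genes tested, 1.81% were at least 2-fold lower and 8.63% at least 2-fold higher.

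Among the lowest genes in all parts were Slc5a12, a carrier of the enterocyte brush border (7.69 against 24.6 CPM, -1.68), Apol7a (20.3 against 62.5, -1.62), Ceacam20 (-1.47) and Apoc2 (330 against 829 CPM, -1.33). Cym (-2.04), with 7 counts in the collagen-rich squares, Gml2 and Ttll2 (both -1.93) rest on few counts.

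Paneth cell genes went the other way. Paneth cells sit at the crypt base and secrete antimicrobial peptides. Of 16 measured genes 13 were at least 2-fold higher, the median was 1.22 and the sum was 14429 against 6588 CPM. Defa24 had 5567 against 2566 CPM (1.12), and the alpha-defensin genes are near-identical copies, so the split among them is uncertain. The Paneth sum was 6003 CPM in the adipocyte-rich set, 14615 in the muscle-rich set and 18181 in the others. Of 10 measured stem cell genes 1 was at least 2-fold higher, a share near the 8.63% over all genes tested. It was Smoc2 (171 against 68.7 CPM, 1.32), which is also on the list of matricellular genes. Olfm4 had 587 against 312 CPM (0.91), and the median of the stem cell list was 0.45.

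**Figure D5:**
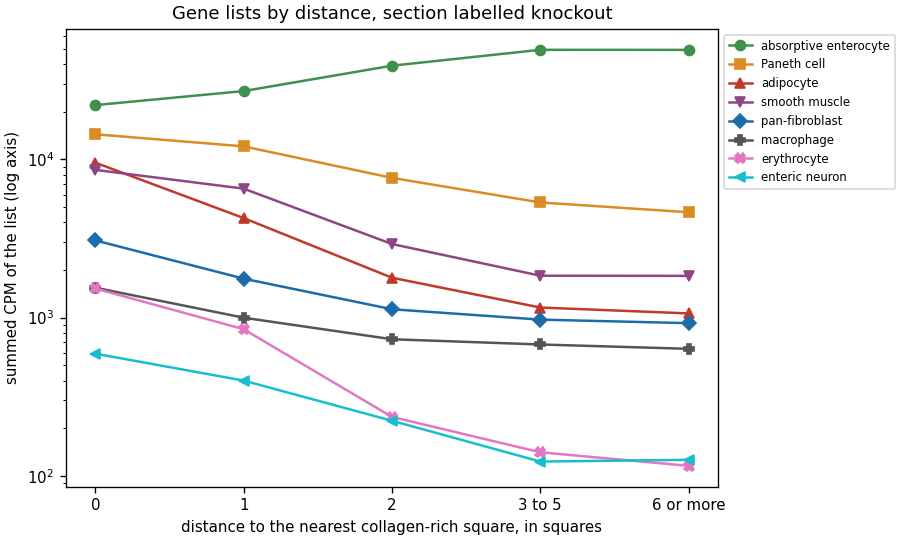
Summed CPM of 8 gene lists (log axis) by the distance of a square to the nearest collagen-rich square, in squares, for the section labelled knockout. Distance 0 is the collagen-rich squares themselves. Smooth muscle counts go from 8595 CPM at distance 0 to 1837 at 6 or more squares, and enterocyte counts from 22065 to 49294.

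The surroundings changed within a few squares. The 5 genes of the rule summed to 2019 CPM in the 414 collagen-rich squares, 792 CPM in the 1216 squares beside them, 386 at a distance of 2 squares, 267 at 3 to 5 and 260 at 6 or more. Smooth muscle genes were still at 6538 CPM in the adjoining squares and 2920 at a distance of 2, adipocyte genes at 4260 and 1788, and Paneth genes at 12100 and 7649. Enterocyte genes went from 22065 to 27072, 39159 and 49352 CPM over distances 0, 1, 2 and 3 to 5. The 5 genes, smooth muscle and enterocyte sums at 3 to 5 squares were thus close to those at 6 squares or more, and the Paneth sum was 5347 against 4638 CPM.

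Lists of p53 targets, proliferation, interferon response, immediate early and BAF complex genes were read against the shares over all genes tested. Of all genes, 8.63% were at least 2-fold higher and 1.81% at least 2-fold lower. With no unirradiated section, a response to radiation cannot be read from these lists. Of 23 measured p53 targets 1 was at least 2-fold higher, Phlda3 (37.2 against 12.6 CPM, 1.56), and 1 at least 2-fold lower, Pmaip1, which encodes NOXA (45.7 against 101 CPM, -1.14). Cdkn1a, which encodes p21, stood at 115 against 185 CPM (-0.69). The median of this list was 0.13, and -0.02 when counts were scaled by the median of ratios. None of 29 proliferation genes was 2-fold apart, with a median of 0.23. Interferon response genes were split, with 3 of 20 at least 2-fold higher, Ifi27l2a, Ifitm3 (1.90) and Gbp2 (1.54), and 5 at least 2-fold lower, among them Ifi27l2b (484 against 979 CPM, -1.02). Of 18 immediate early and heat shock genes 5 were at least 2-fold higher, including Hspb1 (2.08) and Egr1 (1.53). Of the same list 1 was at least 2-fold lower, Atf3 (-1.32, from 15 counts), 7 were below 0 in each of the 4 parts, and the median was -0.07. Of the 22 measured BAF complex genes Smarca2 was at least 2-fold higher (31.8 against 13.3 CPM, 1.25) and the median was 0.29.

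The collagen-rich squares of the section labelled wild type stood out less from their surroundings. Of 8664 genes tested there, 91 (1.05%) were at least 2-fold higher and 143 (1.65%) at least 2-fold lower, with a median of -0.17. The 5 genes had a median score of 2466 CPM in the 245 squares and 813 CPM in the remaining ones, so the score was higher outside as well as inside than in the section labelled knockout. In barcodes that had not chosen the squares, their log2 ratio was 1.07, against 2.08 in the section labelled knockout. The squares there were also less clustered, with a largest group of 21 squares and 17.4% of neighbours collagen-rich. Of the 8281 genes tested in both sections, 629 were at least 2-fold higher in the collagen-rich squares of the section labelled knockout, 61 in those of the section labelled wild type and 55 in both, which is 8.74% of the first and 90.2% of the second. Smooth muscle genes had a median of 0.77 there against 1.73, pan-fibroblast genes 0.89 against 1.54 and Paneth genes 0.36 against 1.22. Depth differed too: a collagen-rich square had a median of 6895 counts there, against 10898.5 in the section labelled knockout. Fewer than 10 counts of the 5 genes were held by 62 of the 245 squares there, against 49 of 414. The part of depth in these differences was not tested. The differences between the sections were not tested, since each is 1 section.

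Collagen-rich squares were then compared between the sections. Dpf2, the gene of the label, had 146 counts in the collagen-rich squares of the section labelled knockout and 33 in those of the other. These are 31.2 against 18.7 CPM (log2 ratio 0.74, 0.18 to 1.33). In the remaining squares Dpf2 was nearly level, at 25.7 against 23.8 CPM (0.11). It was not lower where the label says knockout, and since the deleted part is not given, counts of other parts of the gene are not a check of it. Every direction below is therefore between 2 sections as labelled. With 100 counts as the minimum, 8412 genes were compared. Of them 1867 (22.2%) reached 2-fold in favour of the section labelled knockout and 558 (6.63%) in favour of the other, and the median log2 ratio was 0.29. Scaled by the median of ratios the numbers were 1336 and 848, so the higher genes made up 61.2% of the calls in place of 77.0%, and without the 50 most abundant genes in the total they were 1482 and 731, or 67.0%.

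The fibrillar collagen genes of the rule were close between the collagen-rich squares of the sections, which were chosen on them. Col3a1 had 257 CPM in the section labelled knockout and 266 in the other (log2 ratio -0.05, -0.20 to 0.11), and Col1a2 had 387 and 415 (-0.10, -0.23 to 0.02). Both intervals include 0. Col1a1 was lower in the section labelled knockout (404 against 474 CPM, -0.23), and so were Dcn (484 against 667, -0.46) and Sparc (488 against 784, -0.68). The rule sets the threshold in each section, so these levels depend on it. In the remaining squares the ratios were larger, at -0.70 for Col1a1, -1.58 for Dcn and -1.96 for Sparc.

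Genes that followed the score differed between the sections in both directions. Of 852 genes, of any cell type, at least 2-fold higher in the collagen-rich squares of either section, 233 (27.3%) were higher by 2-fold or more in the section labelled knockout, and 147 (17.3%) were lower by as much. The shares over all genes compared were 22.2% and 6.63%. A gene could enter through the section where it was high, so the 27.3% and 17.3% partly restate how the 852 genes were chosen. Il11 entered through the section labelled wild type alone, with a log2 ratio of collagen-rich over remaining squares of 1.38 there and -1.22 in the other. Cfd entered through the section labelled knockout alone. Higher there were Gdf10 (65.4 against 1.13 CPM, 5.85), Clec3b (84.6 against 3.40, 4.64), Ogn (66.8 against 6.23, 3.42) and Aspn (26.5 against 2.27, 3.55). Lower in the collagen-rich squares of the section labelled knockout were Thbs1, thrombospondin-1 (36.5 against 909 CPM, -4.64), Tnc (72.6 against 559, -2.95) and Igfbp5 (271 against 1978, -2.87). So were Mmp3, stromelysin (7.05 against 424, -5.91), and Mmp10 (4.27 against 270, -5.98). Of 20 matrix proteases and inhibitors measured between the sections 11 were at least 2-fold lower and 3 at least 2-fold higher, with a median of -1.92. Of 14 stromal chemokines and cytokines 11 were at least 2-fold lower and 0 higher, with a median of -3.53. In the remaining squares these lists summed to 275 and 181 CPM, against 1665 and 1162 CPM in the section labelled wild type.

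Among these 852 genes the cytokine genes Il11, Csf3 and Il6 had the lowest ratios. Il11 had 4 counts in the collagen-rich squares of the section labelled knockout and 696 in the other (log2 ratio -8.85), Csf3 had 1 and 129 (-8.42, -13.73 to -5.92) and Il6 had 2 and 257 (-8.41, -11.47 to -6.55). Dio2, an enzyme that activates thyroid hormone, followed with 3 and 197 counts (-7.44, -9.73 to -5.88). Of the 12 lowest, 6 were alpha-defensin genes, from Defa2 (48.9 against 5950 CPM, -6.93) to Defa22 (99.7 against 8221 CPM, -6.37), and another was the cytokine gene Lif, with 29 and 952 counts (-6.44). In the section labelled wild type Il6 and Lif were higher in the collagen-rich squares than in the remaining ones, at 146 against 36.1 and 539 against 149 CPM. The same section held 650 CPM of neutrophil genes in its collagen-rich squares, against 16.9 CPM in the section labelled knockout, and 158134 CPM of Paneth genes against 14429. It held 358 CPM of enterocyte genes against 22065. The remaining squares of the sections differed in the same direction, at -6.25 for Il11, -7.19 for Il6, -7.42 for Dio2, -4.16 for Lif and -7.92 for Defa2. Neutrophil genes had 511 CPM in the remaining squares of the section labelled wild type, against 6.48 in the other. Paneth genes had 123157 against 6588 CPM there, and enterocyte genes 820 against 44289. These differences are thus not particular to the collagen-rich squares. The part of these cell types in the differences was not tested.

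Adipocyte genes were among the highest of the 852, and enterocyte genes, which were lower in the collagen-rich squares than around them, had a median close to theirs between the sections. Cfd had 19891 counts in the collagen-rich squares of the section labelled knockout and 0 in those of the other, which is at least 2499-fold higher against a floor of 3 counts, or 1.70 CPM, over those squares. Against the same floor Car3 was at least 551-fold and Adipoq at least 201-fold higher. The remaining squares differed in the same direction, with Cfd at 677 against 0.21 CPM and Car3 at 133 against 0.42. Pck1, with 931 against 1 count (8.45, 5.97 to 13.76), and Cyp2e1, with 1315 against 1 (8.95, 6.47 to 14.26), were among the highest as well. In favour of the section labelled knockout, all 14 adipocyte genes compared reached 2-fold, with a median of 7.09, or 6.53 with genes at 0 counts set at the floor. So did all 23 absorptive enterocyte genes, with a median of 7.05, or 6.69 at the floor, and Fabp1, a fatty acid binding protein, had 16581 against 14 counts (8.80). In the section labelled wild type the adipocyte list summed to 236 CPM in collagen-rich squares and to 195 CPM in remaining squares, so a patch rich in fat genes like that of the section labelled knockout was not seen there.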

How the data were processed

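Spatial transcriptomes were measured on 1 section of mouse intestine per genotype, fresh frozen and cut at 10 µm, per the labels' protocols. The authors aligned spot and tissue images in BSTMatrix and BSTViewer and deposited whole-number counts per gene and barcode for barcodes under tissue. Barcode positions were also deposited. The genome build is GRCm38, per the submitters' processing notes. Not given in the sources used here are the aligner, the counter, the use of strand and whether molecular identifiers were collapsed, so values are called counts. The sections hold 88056 (labelled knockout) and 50970 (labelled wild type) barcodes with 89754886 and 39824941 counts, and 45557 barcode names occur in both. The label's spot of 100 µm was not taken to describe a barcode. Genes matched to chromosomes X and Y hold 0 counts in both sections.

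Counts were summed in squares of 10 position units, squares under 1000 counts were left out, and the top 5% by score were taken as members. Counts of a symbol listed more than once were added. Levels are CPM over all squares of a set, with exact Poisson intervals in the tables. Intervals of log2 ratios are Clopper-Pearson intervals of the conditional binomial at 95%, for counting error only. Genes with 500 counts in the kept squares, or 100 over the members of both sections, were counted at 2-fold or more. With 1 section per genotype no test was made. No doublet caller was run, since a square is a region.

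The members, the gene lists (28 of cell types, 26 of functions) and the rule for named genes were chosen with earlier results of these data known. Genes named are those of the rule, measured members of the matrix, fibroblast and stromal signal lists, and of each other list the 2 most abundant and the 3 with the largest ratio. To these come the 25 highest and 15 lowest ratios 2-fold apart in all 4 parts, without predicted, immunoglobulin, T cell receptor, ribosomal protein and haemoglobin genes, and, of genes 2-fold higher in the members of either section and with the same exclusions, the 12 highest and 12 lowest ratios between the sections. Dpf2 was named as the gene of the label, and Bgn, Cidec, Mgp and Crispld2 were chosen after their values were seen. A few genes that fall under the rule are not reported here. Alternatives covered the square, its count minimum, the share taken, the scaling, the gene minimum, the genes of the score and thinning. The ratio code was tested on simulated counts. Python 3.11.15, numpy 2.4.6, scipy 1.17.1, pandas 2.3.3 and matplotlib 3.10.9 were used.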

Additional observations from a re-analysis of the deposited data

Results flagged for a closer look

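In 11 gene lists the median log2 ratio of collagen-rich over remaining squares had opposite signs in the sections. Each section is 1 sample, so the difference was not tested and no explanation was weighed. The median over all genes tested also had opposite signs, 0.16 and -0.17, a difference of 0.33 that the values below should be read against. Taken as the section labelled knockout minus the section labelled wild type, the difference was 0.92 for proliferation genes (29 measured in each section, medians 0.23 and -0.69). It was 0.80 for 20 ribosomal protein genes (0.44 and -0.35) and 0.78 for intestinal stem cell genes (0.45 and -0.33). It was 0.51 for BAF complex genes (0.29 and -0.22), 0.39 for p53 targets (0.13 and -0.26) and 0.12 for plasma cell genes (0.05 and -0.08). Negative differences were found for T and NK cell genes at -1.40, from 4 genes in the section labelled knockout and 1 in the other, and for goblet cell genes at -0.46 (-0.36 and 0.09). B cell genes gave -0.45, from 1 and 3 genes, tuft cell genes -0.28, from 4 and 2 genes, and immediate early and heat shock genes -0.29. The medians of the p53 and plasma cell lists in the section labelled knockout change sign with the scaling. Those of the B cell and tuft cell lists keep it under the scalings but not under all 12 settings described below. They run from -0.38 to 0.11 and from -0.31 to 0.08.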

How the results depend on the processing

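Settings of the square, the share taken, the count minimum, the scaling, the genes and the score were changed 1 at a time, with 27 settings for the counts of genes against the remaining squares and 21 between the sections. Against the remaining squares, 928 genes higher became 1448 at a gene minimum of 250 counts, 507 at 1000 and 5569 with no minimum. The 195 lower became 337 with the median of ratios, 44 when each square was thinned to 1000 counts for the score, and 9978 with no minimum. Between the sections, 1867 genes higher became 1032 with the top 2% of squares and 7304 with no minimum. The 558 lower became 286 with the top 2%, 898 with the top 10%, 848 with the median of ratios, 855 at a minimum of 50 counts, 341 at 200 and 4168 with no minimum. More or fewer genes are tested when the minimum or the share of squares is changed, and otherwise the cause was not tested. Over 12 settings for the lists and genes, the 52 list medians with a measured member gave 569 values within their spread of the main value, 55 that moved and 0 that changed sign as a 2-fold call. For 597 genes these numbers were 5905, 1258 and 1. The 1 was Cidec, at -0.15 without the squares richest in adipocyte genes. Of the list medians 49 kept their sign under the 3 scalings, all but plasma cells, transmembrane collagens and p53 targets, and 46 under all 12 settings. No paired analysis was possible because each genotype has 1 section and the labels give no replicate numbers, and for the same reason no replicate could be left out. Depth limits single squares, where the score rests on a median of 21 counts, and genes under the count minimum.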

Other observations

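Ribosomal protein genes were slightly but evenly higher in the collagen-rich squares of the section labelled knockout. All 20 measured had log2 ratios of at least 0.27, and 19 of them were above 0 in each of the 4 parts. Rplp1 had 3261 against 2612 CPM. Somatostatin (Sst), a hormone of D cells that some enteric neurons also make, was uneven over the section: its log2 ratio was 1.51 in all, 3.45 in part 3 and -0.65 in part 4. With the genes of the score left out of every list, collagen-rich squares overlapped the top 5% of squares for matrix proteases and inhibitors in 36.5% of cases, for small leucine-rich proteoglycans in 33.3%, for matricellular genes in 32.6% and for erythrocyte and macrophage genes in 30.7% each.

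A few abundant genes had nearly the same level in every set of squares. Tlk1 had 8123 CPM in the collagen-rich squares, 8522 in the remaining squares and 7984 in the collagen-rich squares of the section labelled wild type. Trim30a had 7793, 8164 and 8056 CPM in the same sets, Nkain2 had log2 ratios of -0.11 against the remaining squares and 0.06 between the sections, and Fgfr2 had 0.02 and 0.04. What the counts of these genes hold was not tested.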
